A study of Mus musculus with 16 samples.

Results

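CC chemokines are small secreted proteins that draw leukocytes along a gradient, and CC receptors are the G protein-coupled receptors that read them. Ccr1 is carried mainly by monocytes, macrophages and neutrophils and binds several ligands, among them Ccl3, Ccl5, Ccl6, Ccl7 and Ccl9. Ccr2 is the receptor of the monocyte-attracting ligands Ccl2 and Ccl7. In an injured peripheral nerve or ganglion, glia, fibroblasts and resident macrophages make these ligands, and monocytes and macrophages respond to them. The genes described here are 9 protein-coding genes of this family, 7 ligand genes (Ccl2, Ccl3, Ccl4, Ccl5, Ccl6, Ccl7 and Ccl9) and 2 receptor genes (Ccr1 and Ccr2), of 21684 protein-coding genes and 56941 features in each table. They were chosen by name, with group differences of these same libraries in view, so their levels and fold changes are a description. Where a test result is given for a member, nothing is read from it.

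Bulk RNA-seq was performed on 16 libraries from an indirect coculture of superior cervical ganglion (SCG) explants, a sympathetic ganglion of the neck, with fibroblast lines on inserts that share the medium without contact. Ganglion RNA was measured in SCG alone (n = 3), SCG with MEF (n = 3) and SCG with PSC (n = 4), and RNA of the stellate cells in PSC alone (n = 3) and PSC with SCG (n = 3). Explants came from wild-type C57BL/6J pups aged P1 to P4, were treated with collagenase, triturated and grown with nerve growth factor, 8 to 13 to a well, for about 70 hours in coculture. PSC is mPSC1, an immortalized mouse pancreatic stellate cell line, MEF is NIH 3T3, an immortalized mouse embryonic fibroblast line, and each stands for a single line. All ganglion groups, the explants alone included, had been cut from the animal and dissociated, and the explants hold glia, macrophages, endothelial cells and fibroblasts beside neurons. The methods treat the date of the experiment as a batch, so the libraries came from more than 1 experiment, but the labels do not tie a library to a date and the sources used here do not give its litter, so part of the spread between libraries may be technical.

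The recovered reads on genes ran from 32013901 to 39197230 in 9 of the 10 ganglion libraries and from 31900689 to 41632381 in 5 of the 6 stellate cell libraries. Values are normalized counts, scaled by the authors within each table so that library depth is evened out, and levels are compared only within a table. Replicate 2 stood apart in each ganglion group. In SCG alone its 8 sympathetic neuron markers summed to 91396, against 162850 in replicate 1 and 217421 in replicate 3, and its 9 fibroblast and stellate markers summed to 415928, against 211491 and 289769. Its neuron marker sum was also the lowest in SCG+MEF, 134921 against 176624 and 200539, and in SCG+PSC, 106103 against 155741 to 186623. Its fibroblast and stellate sum was the highest in both. Values given below without SCG replicate 2 keep replicate 2 of the other groups.

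The ligand genes lie in a pair of neighbourhoods on chromosome 11 and the receptor genes on chromosome 9 (GRCm39, GENCODE release M39). Ccl2 spans chr11:81926397-81928279 and Ccl7 chr11:81936532-81938351, both on the plus strand. Further along, Ccl5 spans chr11:83416602-83425942, Ccl9 chr11:83463745-83473161, Ccl6 chr11:83478708-83483913 and Ccl3 chr11:83538670-83540191 on the minus strand, and Ccl4 spans chr11:83553383-83555509 on the plus strand. Ccr1 spans chr9:123762161-123768734 on the minus strand and Ccr2 chr9:123901982-123913594 on the plus strand. No exon base of the 9 genes is shared with another gene on the same strand. Runs of 50 bases also found in transcripts of other genes make up 2.51% of the runs in Ccl9 and 1.94% in Ccr2, and 0% in the other members.

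The sequences upstream of Ccr1, Ccl6 and Ccl9 are shown because these 3 genes had the highest fold changes in ganglia grown with PSC. RefSeq promoters (GRCm38.p6, another build than the files use) were found for 5 of the 9 members, Ccr1, Ccr2, Ccl3, Ccl6 and Ccl9. Each line holds the 150 bases that end just before the start, written 5′ to 3′ on the strand of the gene, and capitals mark every match to the motifs named after them. The Ccr1 window is chr9:123968693-123968842, minus strand, the Ccl6 window chr11:83593088-83593237, minus strand, and the Ccl9 window chr11:83578637-83578786, minus strand.
Ccr1: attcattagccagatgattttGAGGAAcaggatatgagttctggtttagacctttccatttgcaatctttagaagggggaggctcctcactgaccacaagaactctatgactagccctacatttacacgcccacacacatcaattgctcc
Ccl6: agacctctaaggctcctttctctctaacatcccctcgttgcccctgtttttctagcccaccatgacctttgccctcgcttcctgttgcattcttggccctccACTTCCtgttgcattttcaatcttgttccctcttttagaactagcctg
Ccl9: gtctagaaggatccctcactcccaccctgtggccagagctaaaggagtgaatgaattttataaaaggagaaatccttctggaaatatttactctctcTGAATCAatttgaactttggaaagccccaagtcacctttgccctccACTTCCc
Both strands of the 250 bases before each start were searched for 5 motifs, the ETS core GGAAGT, a PU.1-type core GAGGAA, AP-1 as TGANTCA, IRF as GAAANNGAA and STAT as TTCNNNGAA. The motifs can overlap, the ETS and PU.1-type cores for example, since GGAA is in both. An ETS core lies 48 bases before the start of Ccl6 and 7 bases before that of Ccl9, and Ccl9 also holds an AP-1 match at 53 bases. Ccr1 holds a PU.1-type core at 129 bases and no ETS core. Ccl3 holds an ETS core at 209 bases and a PU.1-type core at 33 bases, and Ccr2 holds neither, so these cores are not particular to the genes shown. In all 32851 promoters of the table, 19.7% hold the ETS core, 23.3% the PU.1-type core and 6.75% the AP-1 letters, so none of these matches is rare. The IRF letters (7.13% of promoters) were at 86 bases in Ccr2 and at 39 bases in Ccl3, and not in the windows of Ccr1, Ccl6 and Ccl9. The STAT letters (7.02%) were in none of the 5 windows. Which motifs to show, and the length of the IRF letters, were settled after matches in these windows had been seen, and other motifs that were looked at are not shown, so the matches are a description only.

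The ligands and receptors that were higher in ganglia grown with PSC were Ccr1, Ccl6, Ccl9 and Ccl4, each of them above all SCG libraries and above all SCG+MEF libraries. Ccr1 and Ccl6 were also above SCG in every SCG+MEF library. Ccl2, Ccl7, Ccl5, Ccl3 and Ccr2 overlapped between the ganglion groups. In the stellate cells, Ccl2, Ccl7 and Ccl5 were among the abundant transcripts, and Ccr1, Ccr2, Ccl3 and Ccl6 were at or near 0. The plot of the 9 genes by ganglion library shows these values.

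**Figure D1:**
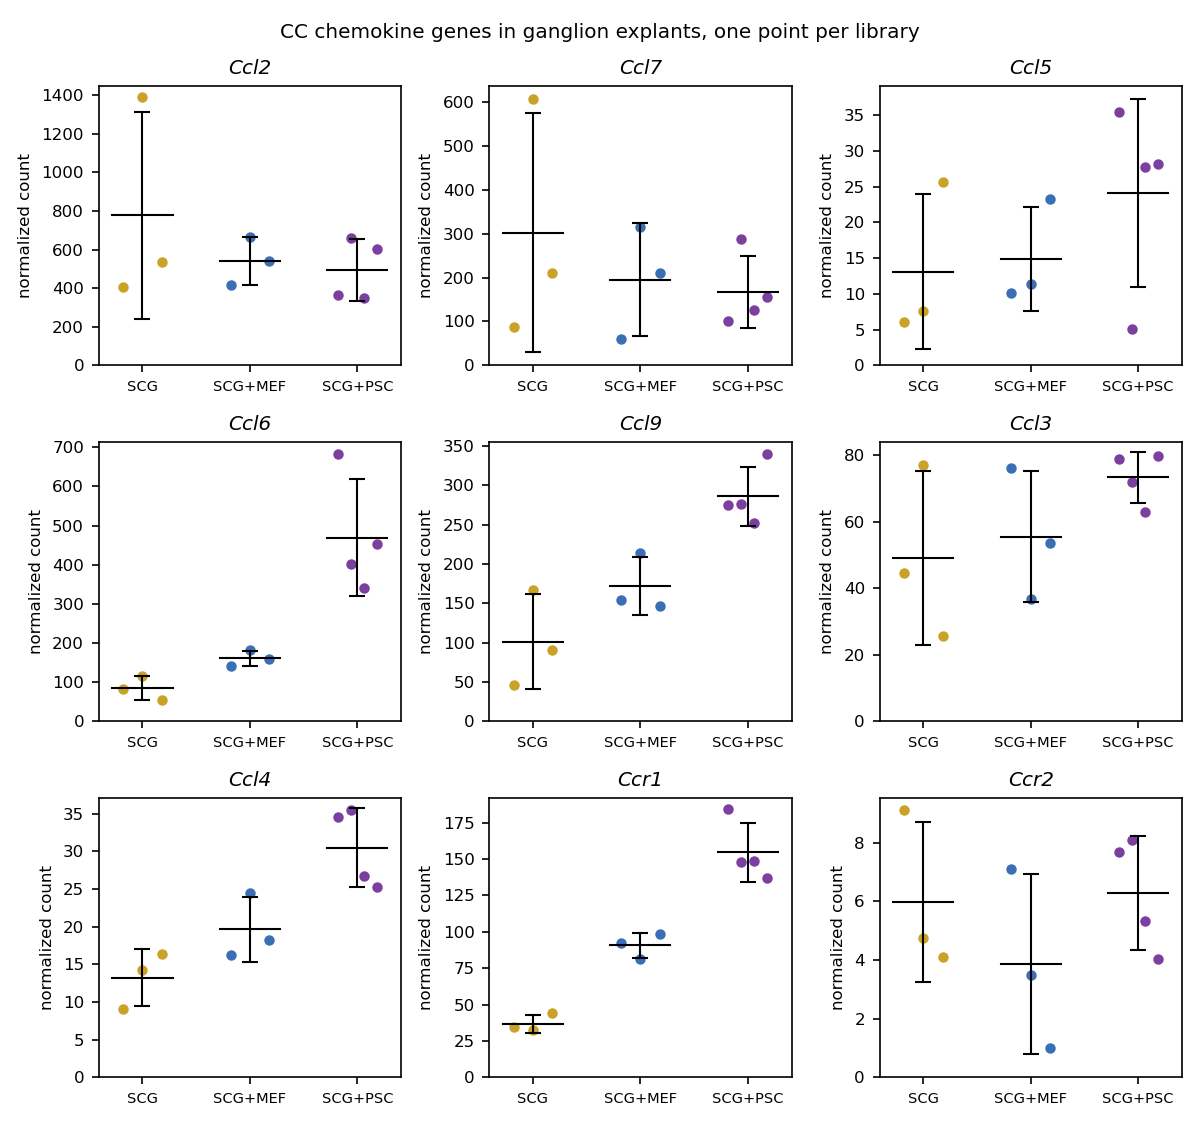
Normalized count (y axis, from 0) of each of the 9 genes in the 10 ganglion libraries, by group (x axis), with 1 point per library, a bar at the mean and whiskers of 1 SD. For Ccr1, Ccl6, Ccl9 and Ccl4 the 4 SCG+PSC points sit above all points of the other groups, while the groups overlap in the other 5 genes.

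Ccr1, the receptor for most of the ligands described here, had 34.4, 32.3 and 44.1 normalized counts in SCG replicates 1 to 3. It had 92.3, 81.5 and 98.3 in SCG+MEF, and 184.2, 148.0, 148.5 and 137.2 in SCG+PSC. The groups did not overlap in any of the 3 comparisons, and the step was from 36.9 ± 6.25 (SD, n = 3) to 90.7 ± 8.54 (n = 3) to 154.5 ± 20.5 (n = 4). Fold changes here are differences of log2(normalized count + 1), with the standard error (SE) of a fit over all 10 ganglion libraries. Ccr1 differed by 2.04 ± 0.20 (SE) between SCG+PSC and SCG, by 1.28 ± 0.21 between SCG+MEF and SCG, and by 0.76 ± 0.20 between SCG+PSC and SCG+MEF. Each of the first pair of comparisons uses the same 3 SCG libraries. Within same-numbered libraries, SCG+PSC exceeded SCG by 2.39, 2.16 and 1.73 and SCG+MEF exceeded SCG by 1.40, 1.31 and 1.14 (log2 differences).

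Ccr2, the receptor that brings circulating monocytes into tissue, was close to the limit of detection in the ganglia. It had 9.11, 4.76 and 4.10 normalized counts in SCG, 7.10, 3.50 and 1.01 in SCG+MEF, and 7.67, 8.11, 5.34 and 4.03 in SCG+PSC. A count of 0 allows up to 3 reads, which is 2.63 to 3.20 normalized counts in the 9 ganglion libraries with recovered reads (counting error only). The groups overlapped, and the log2 differences were 0.087 ± 0.53 (SE) for SCG+PSC against SCG and -0.67 ± 0.57 for SCG+MEF against SCG. Without SCG replicate 2 the former was -0.019. At this depth no difference between the groups was detectable.

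Ccl6, a ligand of Ccr1 made by myeloid cells, had 84.0, 115.1 and 54.3 normalized counts in SCG and 141.9, 182.2 and 158.1 in SCG+MEF. In SCG+PSC it had 682.0, 402.4, 339.7 and 452.9. The mean was 84.5 ± 30.4 (SD, n = 3) in SCG, 160.8 ± 20.3 (n = 3) in SCG+MEF and 469.3 ± 149.2 (n = 4) in SCG+PSC, with no overlap between any groups. The log2 differences were 2.47 ± 0.28 (SE) for SCG+PSC against SCG, 0.98 ± 0.30 for SCG+MEF against SCG and 1.50 ± 0.28 for SCG+PSC against SCG+MEF. Replicate 1 was the highest of the SCG+PSC libraries, and without it the difference from SCG was 2.28 and that from SCG+MEF was 1.30. Without SCG replicate 2, the difference between SCG+PSC and SCG was 2.73.

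Ccl9, the gene next to Ccl6 on chromosome 11 and likewise a Ccr1 ligand, had 46.6, 166.5 and 91.2 normalized counts in SCG. It had 154.1, 213.7 and 147.0 in SCG+MEF and 275.3, 275.7, 252.1 and 339.9 in SCG+PSC. Every SCG+PSC library was above every other ganglion library, while SCG replicate 2 lay above 2 of the 3 SCG+MEF libraries. The log2 differences were 1.66 ± 0.34 (SE) for SCG+PSC against SCG, 0.92 ± 0.36 for SCG+MEF against SCG and 0.74 ± 0.34 for SCG+PSC against SCG+MEF. The first pair of differences depended on single SCG libraries, and was 1.20 and 0.45 without replicate 1, the lowest, and 2.11 and 1.36 without replicate 2, the highest.

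Ccl4, a ligand that draws macrophages and T cells, was low but ordered in the same way. It had 9.11, 14.3 and 16.4 normalized counts in SCG, 16.2, 24.5 and 18.2 in SCG+MEF, and 34.5, 35.5, 26.7 and 25.2 in SCG+PSC. The lowest SCG+PSC library was 0.69 counts above the highest SCG+MEF library. The log2 differences were 1.16 ± 0.31 (SE) for SCG+PSC against SCG, 0.55 ± 0.34 for SCG+MEF against SCG and 0.61 ± 0.31 for SCG+PSC against SCG+MEF.

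Ccl3, which binds Ccr1 and lies beside Ccl4, overlapped between all groups, for SCG and SCG+PSC through SCG replicate 2 alone. It had 44.5, 77.1 and 25.6 normalized counts in SCG, 76.0, 36.8 and 53.7 in SCG+MEF, and 78.7, 72.0, 63.0 and 79.7 in SCG+PSC. The SCG+PSC libraries were the closest together, at 73.3 ± 7.68 (SD, n = 4), against 49.1 ± 26.0 (n = 3) in SCG, and the log2 difference was 0.70 ± 0.36 (SE). It was 1.09 without SCG replicate 2 and 0.31 without SCG replicate 3, the lowest, and without replicate 2 the other SCG libraries lay below every SCG+PSC library. Ccl5, a ligand of Ccr1, had 6.07, 7.61 and 25.6 normalized counts in SCG, 10.1, 11.4 and 23.3 in SCG+MEF, and 35.5, 5.07, 27.8 and 28.2 in SCG+PSC. Its lowest library of all was thus in SCG+PSC, and the log2 difference from SCG was 0.82 ± 0.67 (SE). It was 0.46, 0.60 and 1.41 without SCG replicate 1, 2 and 3, in that order.

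Ccl2 and Ccl7, the Ccr2 ligands, overlapped between the coculture groups. Ccl2 had 405.0, 1391 and 535.9 normalized counts in SCG, 418.7, 665.7 and 540.3 in SCG+MEF, and 364.5, 663.0, 347.2 and 601.1 in SCG+PSC. Ccl7 had 87.1, 606.9 and 211.1 in SCG, 59.8, 315.3 and 210.8 in SCG+MEF, and 101.7, 286.9, 125.0 and 155.3 in SCG+PSC. Replicate 2 was the highest library of both genes in each of the 3 groups. Replicate 2 also had the highest sum of fibroblast and stellate markers in each group, 415928 in SCG, 426271 in SCG+MEF and 411112 in SCG+PSC, against 211491 to 341850 in the other 7 libraries, and the part of these cells in the Ccl2 and Ccl7 levels was not tested. The log2 difference between SCG+PSC and SCG was -0.50 ± 0.38 (SE) for Ccl2 and -0.53 ± 0.66 for Ccl7. Without SCG replicate 2 it was 0.025 and 0.18, but replicate 2 of SCG+PSC, also high, stayed in that fit. Within same-numbered libraries, SCG+PSC differed from SCG by -0.15, -1.07 and -0.62 for Ccl2 and by 0.22, -1.08 and -0.75 for Ccl7. With the replicate number as a block (described below), the differences were -0.61 ± 0.19 (SE) and -0.54 ± 0.26. Their adjusted p by limma with that block was 0.20 and 0.50. The genes were chosen with this comparison in view, so nothing is read from these values, and they do not show that the levels were equal.

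The genes passed a test over all genes in few comparisons. With limma, a gene was counted when its Benjamini-Hochberg adjusted p was at most 0.05 and its log2 fold change at least 0.5 in size, which 8 of 15984 protein-coding genes did in SCG+PSC against SCG, all of them higher (0.0501%). Ccr1 and Ccl6 were 2 of those 8, and 890 genes (5.57%) had an unadjusted p under 0.05. On the 9 libraries with recovered reads, which leave out SCG+PSC replicate 4, DESeq2 also called both, and edgeR called Ccr1 but not Ccl6. By limma the Ccl6 call was also lost when only these 2 groups were fitted, without SCG replicate 1 and without SCG+PSC replicate 4. In SCG+MEF against SCG 3 genes passed (0.0188%), without a member by limma or edgeR and with Ccr1 by DESeq2, and 435 genes (2.72%) had an unadjusted p under 0.05. In SCG+PSC against SCG+MEF 0 genes passed (0%), with 628 (3.93%) at an unadjusted p under 0.05, 0 by edgeR and 18 by DESeq2. Since these contrasts were among the values that put the genes on the list, nothing is read from these counts.

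With the replicate number as a block, which removes differences shared by same-numbered libraries and leaves SCG+PSC replicate 4 without a partner and without weight, more genes passed. In SCG+PSC against SCG 1.75% of protein-coding genes passed as higher, Ccl9 joined Ccr1 and Ccl6, and the blocked log2 differences were 2.09 ± 0.20 (SE) for Ccr1, 2.48 ± 0.24 for Ccl6 and 1.57 ± 0.27 for Ccl9. In SCG+MEF against SCG 0.169% passed as higher, Ccr1 among them at 1.28 ± 0.20. Libraries without overlap were more common. Every SCG+PSC library lay above every SCG library for 4 of the 9 members and 3.13% of all protein-coding genes tested, every SCG+MEF library above SCG for 2 members and 2.95%, and every SCG+PSC library above SCG+MEF for 4 members and 2.2%. The median log2 difference of the 9 members was 0.82, 0.35 and 0.61 in these comparisons, in that order, against 0.0081, 0.031 and -0.019 over all protein-coding genes tested. The members were chosen with these differences in view, so nothing is read from these shares and medians either.

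**Figure D2:**
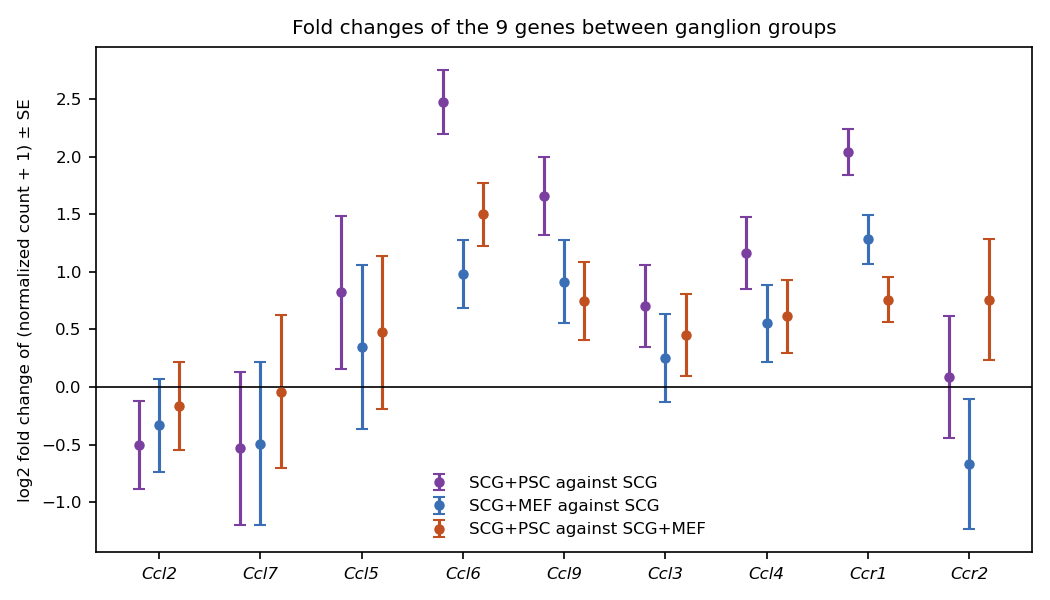
Difference of log2(normalized count + 1) (y axis) of the 9 genes (x axis) in the 3 ganglion comparisons, with points at the fitted value and whiskers of 1 SE. Ccl6 at 2.47 and Ccr1 at 2.04 lie highest for SCG+PSC against SCG, and Ccl2 and Ccl7 lie below 0 in all 3 comparisons, before SCG replicate 2 is left out.

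Fewer cells of a type and less RNA per cell cannot be told apart in bulk RNA, so the members were also set beside macrophage markers. The 5 defining markers (Adgre1, Csf1r, C1qa, Fcgr1 and Cd68) summed to 3676 to 5815 normalized counts in SCG, 3880 to 5696 in SCG+MEF and 4083 to 5253 in SCG+PSC. RNA of these markers was thus present, and their sums overlapped between the groups. Over the whole list of 20 macrophage markers, 0 of the 19 tested passed, with a median log2 difference of -0.099 for SCG+PSC against SCG, and summed levels of 20769 to 32603 in SCG and 20991 to 28698 in SCG+PSC. Without Lyz2, the most abundant of them, the sums were 12082.2 to 19093.5 in SCG and 12569.1 to 16582.0 in SCG+PSC. The single markers were not uniform, with 6 higher and 13 lower and log2 differences from -0.29 to 0.87. By limma 2 had an unadjusted p under 0.05 (5.57% of all protein-coding genes tested). Among the higher ones, mean counts in SCG and SCG+PSC were 90.3 and 149.4 for Fcgr1, a defining marker, and 69.3 and 124.6 for Itgam. Cd163 was the marker at 0 in all SCG+PSC libraries, but it was near 0 in every ganglion group, at most 1.01 in SCG and 0.88 in SCG+MEF. Per 1000 counts of the defining markers, Ccr1 had 5.92, 7.27 and 12.0 in SCG, 16.2, 18.3 and 25.3 in SCG+MEF, and 35.1, 32.9, 36.4 and 30.5 in SCG+PSC. The groups again did not overlap.

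On the same scale Ccl6 had 14.5, 25.9 and 14.8 in SCG, and 129.8, 89.5, 83.2 and 100.6 in SCG+PSC, with SCG+MEF at 24.9, 40.8 and 40.8 and overlapping SCG. Ccl9 had 23.4 ± 14.8 (SD, n = 3) in SCG, 37.6 ± 10.4 (n = 3) in SCG+MEF and 62.7 ± 9.52 (n = 4) in SCG+PSC per 1000 defining counts. The SCG+PSC libraries of both genes thus lay above those of SCG also per macrophage marker. Neutrophil markers, the other main carriers of Ccr1, summed to at most 7.01 normalized counts in any ganglion library, and Ly6g was at 0 in SCG and SCG+PSC. Cd3e, Cd3d and Cd3g, which define T cells, were at 0 in all ganglion libraries, while the 9 T, NK and B cell markers summed to 75.0 to 215.7. Most of that sum was Klrb1c, at means of 146.9 in SCG, 108.8 in SCG+MEF and 88.6 in SCG+PSC, while Nkg7 and Ms4a1 were at 0 in all ganglion libraries. The 5 mast cell markers summed to 148.6 to 399.9 in SCG, 193.6 to 375.1 in SCG+MEF and 316.3 to 488.2 in SCG+PSC. Nearly all of that sum was Kit, which is not particular to mast cells, at means of 251.0, 304.9 and 398.3, while Fcer1a and Mcpt4 were at 0 in all ganglion libraries and Cpa3 and Cma1 reached at most 2.14 and 4.27. The 4 endothelial markers summed to 1156 to 1744, 1761 to 1982 and 1779 to 2617 in the same order, higher in every SCG+PSC library than in SCG. All 4 had a higher mean in SCG+PSC than in SCG, with a median log2 difference of 0.86. By limma none of them was past the threshold, but all 4 had an unadjusted p under 0.05 (5.57% of all protein-coding genes tested). Their part in the member values was not tested. The 6 satellite glia and Schwann cell markers summed to 41994 to 56752 in SCG and 45122 to 56468 in SCG+PSC.

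**Figure D3:**
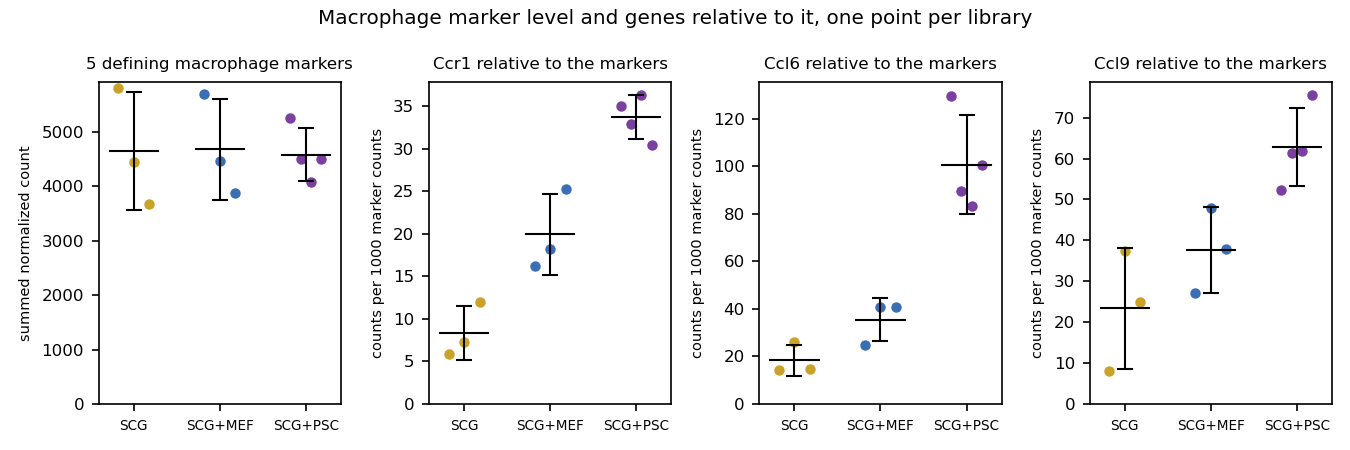
Summed normalized count of 5 defining macrophage markers (left panel) and Ccr1, Ccl6 and Ccl9 in counts per 1000 of those marker counts (other panels) in the 10 ganglion libraries, with 1 point per library, a bar at the mean and whiskers of 1 SD. The marker sums overlap between groups, at 3676 to 5815, and the SCG+PSC points of each gene lie above all other points.

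The stellate cell line made a different set of these genes. Ccl2 had 6657, 8667 and 8550 normalized counts in PSC alone and 9893, 10040.4 and 7495 in PSC with SCG. Ccl7 had 5455, 6787 and 6849.9 in PSC alone and 8405, 7702 and 6859 in PSC with SCG, so that the groups were apart by 9.29 counts. The log2 differences were 0.20 ± 0.17 (SE) for Ccl2 and 0.27 ± 0.14 for Ccl7, and without PSC replicate 1, the lowest library of both genes, they were 0.074 and 0.16. Every PSC+SCG library lay above every PSC library in 2.9% of the protein-coding genes tested.

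Ccl5 had 1389, 3218 and 1854 normalized counts in PSC alone and 1249.8, 3029 and 915.9 in PSC with SCG. Replicate 2 was the highest in both groups, and the log2 difference was -0.42 ± 0.44 (SE), or -0.057 without PSC+SCG replicate 3. Ccl9 had 265.5, 264.5 and 282.2 in PSC alone and 369.8, 287.1 and 186.2 in PSC with SCG, with means of 270.8 ± 9.96 (SD, n = 3) and 281.0 ± 92.0 (n = 3). The mean of Ccl9 thus hardly differed while its spread did. Ccl4 had at most 11.4 and Ccl6 at most 1.69 normalized counts in any stellate cell library.

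Neither receptor was detected in the stellate cells beyond 0.96 normalized counts of Ccr1 in a single PSC library. Ccr2 and Ccl3 were listed at 0 in all 6, which allows up to 3 reads or 2.54 to 3.41 normalized counts in the 5 libraries with recovered reads. The macrophage markers Adgre1, C1qb, C1qc, Itgam, Ptprc and Tyrobp were also at 0 in both stellate cell groups, while Csf1r and Cd68 were not, and the 5 defining markers summed to 205.5 to 329.8. The 9 fibroblast and stellate markers, all detected, summed to 457566 to 703222. In PSC+SCG against PSC, 5 of the 9 members had enough reads to be tested, and none passed by limma or edgeR. By limma 0 of 14541 protein-coding genes passed (0%), with 205 (1.41%) at an unadjusted p under 0.05, and by edgeR 0 with 153. With the replicate block 0.447% passed as higher, without a member.

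**Figure D4:**
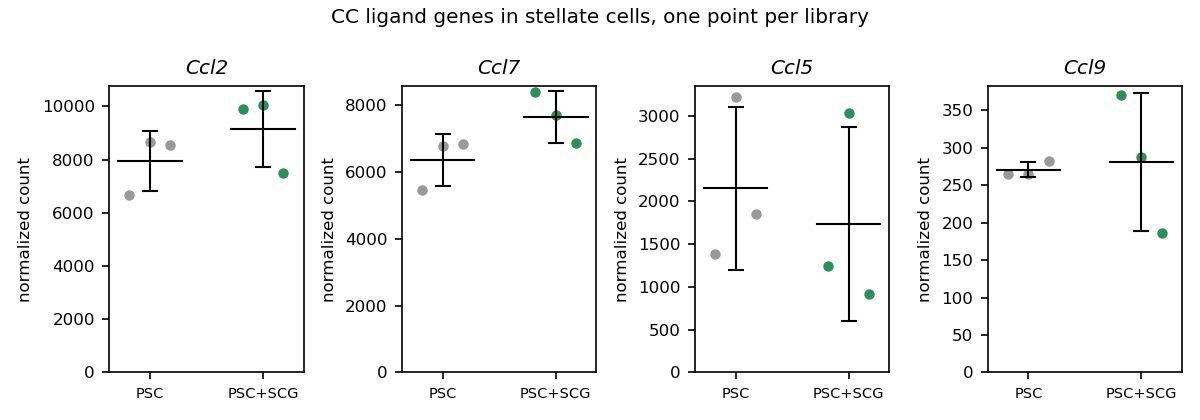
Normalized count (y axis, from 0) of Ccl2, Ccl7, Ccl5 and Ccl9 in the 6 stellate cell libraries by group (x axis), with 1 point per library, a bar at the mean and whiskers of 1 SD. The groups overlap in Ccl2, Ccl5 and Ccl9, and in Ccl7 the lowest PSC+SCG point, 6859, is just above the highest PSC point, 6849.9.

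Per kilobase of exon the ganglion and the stellate line ordered the genes differently. In SCG alone, Ccl2 was highest at 683.0 normalized counts per kilobase, followed by Ccl7 at 373.8, Ccl3 at 63.2, Ccl6 at 46.5, Ccl9 at 32.6, Ccl4 at 19.3, Ccr1 at 13.0, Ccl5 at 12.8 and Ccr2 at 0.89. The counts of Ccl2 and Ccl7 overlapped widely in SCG, and those of the genes from Ccl3 to Ccl9 had SDs that spanned the steps between them. The library values of Ccl4, Ccr1 and Ccl5 per kilobase also overlapped one another. In SCG+PSC, Ccl6 at 258.1 per kilobase stood between Ccl2 at 434.1 and Ccl7 at 207.2. Among 21621 protein-coding genes with a length, Ccl6 moved from rank 10603 in SCG to 9011 in SCG+MEF and 4903 in SCG+PSC, and Ccr1 from 12662 to 11453 and 10353. In PSC alone, Ccl7 ranked 84 at 7886 normalized counts per kilobase, Ccl2 ranked 106 at 6993 and Ccl5 ranked 465 at 2097.

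**Figure D5:**
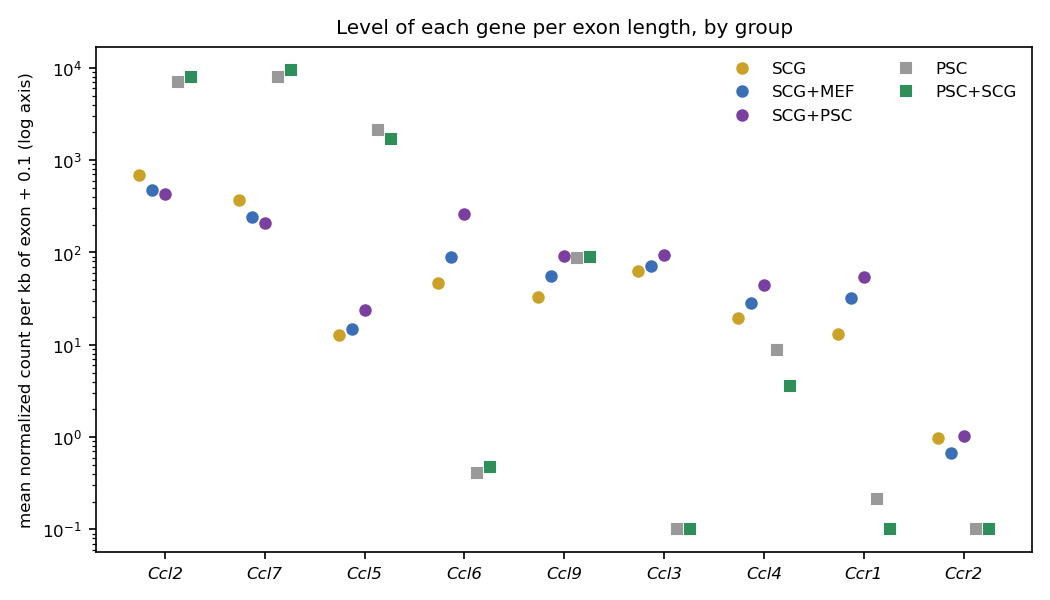
Mean normalized count per kilobase of exon, plus 0.1, on a log axis (y) for the 9 genes (x) in the 3 ganglion groups (circles) and 2 stellate cell groups (squares). The tables were normalized separately, so circles compare with circles and squares with squares. Ccl6 climbs from 46.5 to 258.1 across the ganglion groups, and genes at 0 in the stellate cells sit on the 0.1 line.

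The genes whose pattern was most like a member were taken as the 3 with the highest Pearson r of log2(normalized count + 1) over the 10 ganglion libraries, among 14228 protein-coding genes with a mean of at least 10. These r values hold the group differences and share libraries, and they carry no p. Ccr1 was most like Mmp8 (r = 0.96), a collagenase, Cxcl3 (0.94), a CXC chemokine, and Cyp1a1 (0.92), an enzyme of xenobiotic metabolism. Ccl6 was most like the scavenger receptor gene Msr1 (0.95), Clec4n (0.94), a C-type lectin, and Ntm (0.90), a neural adhesion protein. Ccl9 was most like the mannose receptor gene Mrc1 (0.96), Suv39h1 (0.94) and Ms4a4d (0.93), and Ccl4 was most like Suv39h1 (0.95), Tuba1b (0.92) and Zfp781 (0.89). The group means of Msr1 were 284.9, 415.1 and 548.3 and those of Mrc1 198.1, 324.1 and 445.6 in SCG, SCG+MEF and SCG+PSC.

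Ccl2 was most like Cflar (0.95), Ptpn22 (0.94) and Sec11c (0.94), Ccl7 like Ikbip (0.99), Cdo1 (0.98) and Dnajc10 (0.98), Ccl3 like Pcdhgb4 (0.87), Plscr4 (0.85) and Tafa3 (0.85), and Ccl5 like Poc5 (0.93), Tpd52l2 (0.91) and Aldh4a1 (0.90). Among the members themselves, Ccr1, Ccl4, Ccl6 and Ccl9 had pairwise r of 0.80 to 0.89. Ccl2 and Ccl7 had r = 0.88 with each other, and Ccl2 had -0.46 with Ccr1.

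Of the 14 other CC ligand genes listed, 9 had enough reads to be tested in the ganglia, and 0 passed in any comparison by limma, with 2 at an unadjusted p under 0.05 in SCG+PSC against SCG, where 5.57% of all protein-coding genes tested had one. Ccl11, the eosinophil attractant, had the highest counts of them, at 808.2 ± 353.9 (SD, n = 3) normalized counts in SCG and 881.7 ± 68.1 (n = 4) in SCG+PSC. Ccl27a had 297.5 and 290.6 and Ccl25 had 75.4 and 101.4 in the same groups. In the stellate cells, 5 were tested and 0 passed, with 0 at an unadjusted p under 0.05, and Ccl25 was highest at 267.4 in PSC and 281.2 in PSC with SCG.

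Of the 13 other receptor genes, 9 were tested in the ganglia and 0 passed by limma, with 3 at an unadjusted p under 0.05 in SCG+PSC against SCG (5.57% of all protein-coding genes tested). Ackr1, a decoy receptor, had 226.4 normalized counts in SCG, 248.9 in SCG+MEF and 217.2 in SCG+PSC. Ackr3, an atypical receptor that takes up CXC ligands, had 373.8, 394.0 and 534.9 in the same order, with every SCG+PSC library above every SCG library (log2 difference 0.51 ± 0.13, SE). Its adjusted p by limma was 0.61 without and 0.048 with the replicate block. In the stellate cells Ackr3 had 402.5, 135.1 and 195.5 in PSC and 579.4, 264.5 and 369.1 in PSC with SCG. It was higher in PSC with SCG within each of the 3 pairs, with an adjusted p by limma of 0.9999 without and 0.018 with the block. Ccrl2 and Ackr4, the next in the stellate cells, had 31.7 and 20.6 normalized counts in PSC.

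Of 20 genes that carry signals from CC receptors, all were tested in the ganglia and 0 passed in any comparison by limma, with 1 at an unadjusted p under 0.05 in SCG+PSC against SCG (5.57% of all protein-coding genes tested) and a median log2 difference of 0.0035. Gnb1, Gnai2 and Rac1, a G protein beta subunit, an inhibitory alpha subunit and a small GTPase of the cytoskeleton, were the most abundant. Their log2 differences between SCG+PSC and SCG were -0.0052 ± 0.11 (SE), 0.012 ± 0.11 and 0.054 ± 0.095. Of 14 genes of the NF-kB pathway and its cytokines, which drive many chemokine genes, 0 passed in any comparison by limma and 0 had an unadjusted p under 0.05 in SCG+PSC against SCG. Rela had 3524 normalized counts in SCG and 3507 in SCG+PSC, Nfkb1 2228 and 2392 and Nfkb2 1142 and 1111. In the stellate cells 15 of the signalling genes and 11 of the NF-kB genes were tested, and 0 of either passed, with 1 and 0 at an unadjusted p under 0.05.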

How the data were processed

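Libraries were grouped by their titles. The authors aligned reads with STAR 2.7.10b to GRCm39 and counted stranded reads per gene (GENCODE M33). The deposited signal values are counts that the authors divided by DESeq2 (1.38.3, R 4.2.2) size factors, separately for 10 nerve and 6 PSC libraries. In 14 of the 16 libraries values were whole multiples of a step, which gave back the reads (100% of values whole within 0.1). All columns were used.

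Here limma 3.58.1 (R 4.3.3) was fitted to log2(normalized count + 1) with a trend, for genes with a sum of at least 10. Counts of genes are over protein-coding genes, with Benjamini-Hochberg adjustment over all genes tested. Normalized values are not counts, so edgeR 4.0.16 and DESeq2 1.42.0 on recovered reads were alternatives, as were a replicate block, other pseudocounts (0.5, 8), filters (none, or 10 in 3 libraries), quantile normalization, leaving out each library and fitting only 2 groups. The code of the test was run on simulated counts with a single fixed dispersion, no replicate effect and changes only in the more abundant genes. That run does not cover low genes or the replicate differences seen here. The study modelled experimental batch, which the labels do not tie to libraries. Same-numbered libraries deviated together for PSC with PSC+SCG (r from 0.23 to 0.47), SCG with SCG+MEF (0.25 to 0.37) and SCG with SCG+PSC (0.16 to 0.30), and were taken as pairs there on this correlation alone. Between SCG+MEF and SCG+PSC r was 0.097 to 0.21, and no differences within pairs are given for them. The block is fitted over all ganglion libraries together, so it joins their same-numbered libraries too.

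Members and lists were chosen with earlier results of these data known. All 9 members are named. Other listed genes are named if past the threshold or among the 3 highest sums of their list in a table. A listed gene that this rule names is not reported here.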

Additional observations from a re-analysis of the deposited data

How the results depend on the processing

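With the replicate block 308 protein-coding genes passed in SCG+PSC against SCG, 38 in SCG+MEF against SCG (1 member, Ccr1) and 76 in PSC+SCG against PSC. In SCG+PSC against SCG+MEF, whose numbers the block joins but which are not otherwise taken as pairs, it gave 182 genes and 1 member, Ccl6. It changed no other member's call there. In that comparison 2 of 3 SCG+MEF libraries correlated best with their own number. DESeq2 on the 9 ganglion libraries with recovered reads gave 55, 21 and 18 genes for SCG+PSC over SCG, SCG+MEF over SCG and SCG+PSC over SCG+MEF, with 1 member in the second (Ccr1) and 1 in the third (Ccl6). edgeR gave 3 genes and 1 member, Ccr1, in SCG+PSC against SCG. Fitting only the 2 groups compared gave 3 genes and 1 member, Ccr1, there, and 1 gene in SCG+MEF against SCG, where quantile normalization gave 5.

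Leaving out 1 library at a time gave 3 to 9 genes and 1 to 3 members in SCG+PSC against SCG. The Ccl6 call was lost without SCG replicate 1 (5 genes) or SCG+PSC replicate 4 (3 genes), Ccl9 joined without SCG replicate 2 (9 genes), and the count of genes fell to 5 without SCG replicate 3 and to 4 without SCG+PSC replicate 1 or 3. The cause of these changes was not tested, beyond fewer libraries in the fit. Of 574 member fold changes under alternatives, 574 moved by less than the residual SD between libraries. That SD was wide for some genes, 0.62 for Ccl2 and 1.08 for Ccl7 in the ganglia, so this count does not show that a value or its sign was stable. In SCG+PSC against SCG, Ccl2 ran from -0.86 to 0.025 and Ccl7 from -1.21 to 0.18, both changing sign. The fold changes of Ccr1, Ccl6 and Ccl9 there ran from 1.85 to 2.17, 2.19 to 2.73 and 1.20 to 2.11. Read depth limits Ccr2 and Ccl4 in all libraries, and 2 libraries without recovered reads have no count test.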

Other observations

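The following genes were picked after their values were seen. Ccl22, a ligand of dendritic cells and macrophages, had 5.06, 15.2 and 3.07 normalized counts in SCG, 42.6, 31.5 and 18.2 in SCG+MEF, and 114.2, 10.1, 65.2 and 66.6 in SCG+PSC. Every SCG+MEF library was above every SCG library, and SCG+PSC replicate 2 was not. Ccr7, the receptor of migrating dendritic cells, had 1.01, 5.71 and 6.15 in SCG and 61.4, 14.2, 27.8 and 24.2 in SCG+PSC, without overlap. The log2 differences between SCG+PSC and SCG were 2.73 ± 0.73 (SE) and 2.65 ± 0.68, with adjusted p of 0.66 and 0.64 by limma without the replicate block and 0.15 and 0.13 with it, so neither passed. Both genes were at or near 0 in the stellate cells.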
